A study of Drosophila melanogaster with 42 samples.

Results

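The mitochondrial ribosomal proteins of Drosophila melanogaster were taken as all genes of the deposited count table whose symbol begins with mRpL or mRpS followed by a digit. This gave 73 of the 15038 genes in the table, 47 named for the large subunit and 26 for the small subunit. All 73 passed the filter on low counts and were tested. The genes tko and bonsai encode mitochondrial small subunit proteins under other names, so the symbol rule leaves them out, and their values are given beside the members.

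The series measured messenger RNA of whole flies by sequencing in 42 libraries, 3 for each of 2 genotypes at each of 7 stages. The genotypes are labelled control and mutant, and the series describes the mutant as one of dERR, the fly estrogen-related receptor, a nuclear receptor that regulates energy metabolism. The stages run from WPP, from which animals were staged, through P1, P2, P3 and P4 to A1 and A6, and the labels spell out none of these names. Animals of both genotypes had been heat-treated on days 4 and 5 AEL, and an hsFLP transgene, by convention a FLP recombinase under a heat shock promoter, was present in 1 genotype and absent from the other. Controls therefore share the heat treatment with mutants, and an effect of the transgene itself cannot be told apart from one of the dERR mutation. The labels do not state the dERR allele, which genotype carried hsFLP, the animals' sex, or whether animals were pooled. Nor do they say whether replicate libraries are separate cultures, so the p-values reflect variation between libraries that may be technical in origin.

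Mitochondria carry their own ribosomes, which translate the few proteins encoded by the mitochondrial genome, core subunits of the respiratory chain and ATP synthase. All proteins of these ribosomes are encoded in the nucleus, made in the cytosol and imported, and they assemble with mitochondrial ribosomal RNAs into a large subunit that forms peptide bonds and a small subunit that reads the messenger RNA. Some members descend from bacterial ribosomal proteins, such as mRpL2, mRpL3 and mRpS9, and others, such as mRpL38, mRpL45 and mRpS35, are particular to mitochondria. Names follow history rather than structure in part, since the mammalian counterparts of mRpS30 and mRpS18A sit in the large subunit.

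Library totals ranged from 4308848 to 7737140 counts. ERR messenger RNA was called lower in mutants at P4, A1 and A6, and at each stage every mutant library had less of it than every control library. The summed level of 11 yolk and eggshell genes, which adult females express strongly, was 5.86 to 29.1 CPM (TMM-normalised counts relative to library size) over the libraries, and Yp1 did not exceed 1.94 CPM in any library. RNAs of males were present in 41 libraries, and mutant P1 replicate 1 stood apart. Its summed level of roX1 and roX2, noncoding RNAs of male dosage compensation, was 4.46 CPM against 245 and 285 CPM in the other P1 mutants, and its 12 testis genes summed to 1.89 CPM against 577 and 644 CPM. Its summed member level was 880 CPM, against 1094 and 1077 CPM in the other P1 mutants. Results on P1 mutants are given with and without this library.

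In control animals the family rose steeply between P1 and P2, was highest at P3 and then declined to A6. The summed level of the 73 members was 1002 ± 34.4 CPM at WPP (SD, n = 3), 1069 ± 20.3 at P1 and 2509 ± 185 at P2. It was 3480 ± 325 CPM at P3, 2379 ± 103 at P4, 1562 ± 92.6 at A1 and 1168 ± 33 at A6. The libraries of A6 lay above those of WPP, at 1136 to 1202 against 965.7 to 1034 CPM, and the libraries of P2 and P4 overlapped. The deposited FPKM values, which are scaled by transcript length, gave the same order for the median member, from 18.2 at WPP to 70.2 at P3 and 25.5 at A6. Of the 73 members 69 had their highest control mean at P3. The ratio of a member's highest to its lowest control mean had a median of 3.85 and ran from 2.04 to 6.55.

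**Figure D1:**
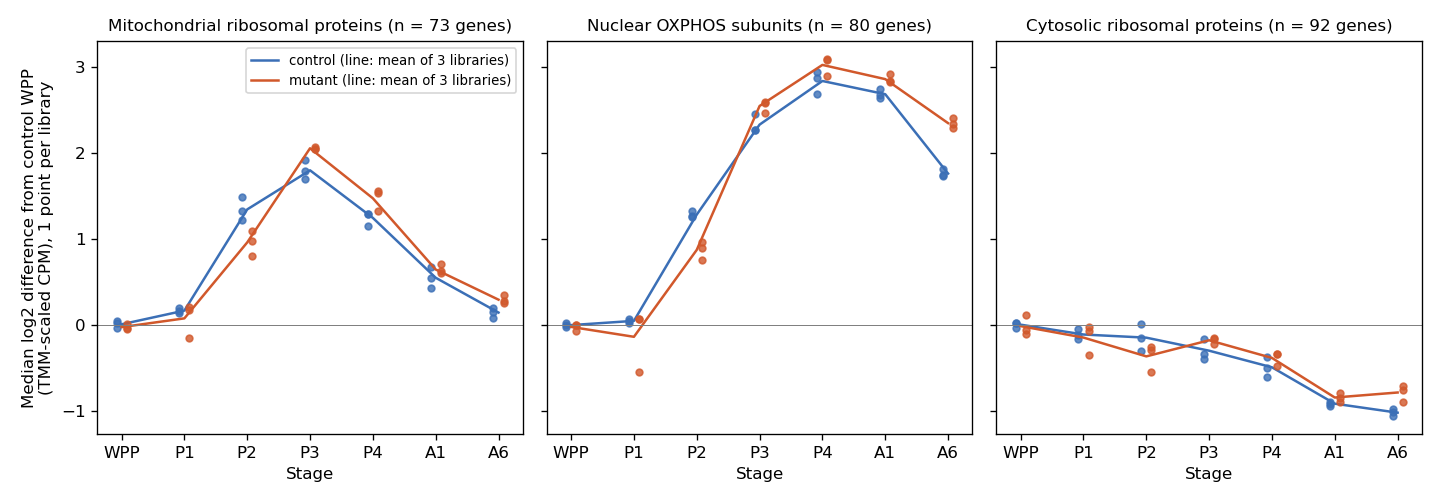
Median log2 difference from the mean of control WPP over the members of 3 gene groups (y axis) by stage (x axis), 1 point per library, lines through the mean of 3 libraries, control in blue and mutant in orange. In controls the mitochondrial ribosomal proteins peak at P3 (1.80), the nuclear oxidative phosphorylation subunits at P4 (2.84), and the cytosolic ribosomal proteins end at -1.02 at A6.

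The steps between consecutive control stages were tested with edgeR's quasi-likelihood test, and a member was called when its Benjamini-Hochberg adjusted p over all 13672 genes tested lay under 0.05. From P1 to P2, 72 of 73 members rose (21% of all genes were called higher and 23.8% lower), with a median log2 difference of 1.26. The exception was mRpL33, at 10.4 ± 1.85 CPM in P1 and 13 ± 2.04 CPM in P2 (adjusted p = 0.162). The largest rise was that of mRpL32, from 8.84, 7.9 and 6.89 CPM to 23.2, 31.1 and 28.1 CPM (log2 difference 1.80, SE 0.143, adjusted p = 2.2e-12). Next came mRpS35, at 1.79, and mRpL35, at 1.76. In all 3 the P2 libraries lay above the P1 libraries.

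From P2 to P3, 46 members rose and none fell (15.6% and 20.9% of all genes), with a median of 0.47. The 46 became 61 with DESeq2's size factors, 61 with the deposited factors and 62 with DESeq2, with medians of 0.60. In those fits 34.8%, 34.4% and 35.2% of all genes were called in either direction. Without control P3 replicate 2 the 46 became 33. The largest rise was that of mRpL42, a protein particular to mitochondria, from 31.5, 30.5 and 29.8 CPM to 71.1, 76.1 and 62.4 CPM (log2 difference 1.19, SE 0.127, adjusted p = 2.4e-09). It was followed by mRpL34, a homolog of the bacterial L34 protein, at 0.92, and mRpS5, a homolog of bacterial S5, at 0.89. In mRpL39 and mRpL15 the control mean was highest at P2, and their P2 and P3 libraries overlapped (51.4 ± 5.96 against 51 ± 7.58 CPM, and 40.9 ± 2.52 against 40.2 ± 6.14 CPM).

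The earliest step, from WPP to P1, was small and mixed, with 10 members higher and 2 lower (25.6% and 21.1% of all genes) and a median of 0.15 beside 0.22 over all genes. The balance of directions was not stable. With only the 6 libraries of this step in the fit, which moved the median of all genes to 0.05, 1 member was higher and 6 were lower, with a median of -0.03, and 3 calls were shared with the fit of all libraries. The largest rises were those of mRpS10 (0.64), mRpL48 (0.55) and mRpS28 (0.47). The 2 that fell were mRpS5, from 70.3 ± 12.5 to 43.4 ± 4.59 CPM (log2 difference -0.70, adjusted p = 1.7e-04), and mRpL28, from 34.6 ± 3.67 to 24.7 ± 0.559 CPM (log2 difference -0.49, adjusted p = 4.9e-04). For both, the P1 libraries lay below the WPP libraries. The 12 calls became 3 higher and 3 lower without control WPP replicate 3, and 4 higher and 3 lower without control P1 replicate 1.

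After P3 no member rose at any control step. From P3 to P4, 60 members fell (20.2% of all genes lower, 17.3% higher, median -0.60), led by mRpS2 at -1.16, from 41.7 ± 2.51 to 18.6 ± 1.61 CPM, mRpS29 at -1.03 and mRpL19 at -1.01. From P4 to A1, 61 fell (22.7% of all genes lower, 16.2% higher, median -0.73), led by mRpL21 at -1.11, mRpL37 at -1.08 and mRpL23 at -1.05. From A1 to A6, 32 fell (14.7% of all genes lower, 9.65% higher, median -0.38), led by mRpL34 at -1.08, mRpL42 at -1.07 and mRpL52 at -0.97. The 32 became 20 without control A1 replicate 2. Both subunits followed the same course, with 46 large subunit and 26 small subunit members higher from P1 to P2 and medians of 1.28 and 1.15.

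The order of the peaks differed from that of the respiratory chain. Of 80 nuclear genes of oxidative phosphorylation, 63 rose from P3 to P4 in controls and none fell (median 0.51), at the step at which 60 of 73 ribosomal members fell and none rose. From P4 to A1, 1 of those 80 genes rose and 19 fell (median -0.17). Cytosolic ribosomal proteins, which build the ribosomes of the cytoplasm, did not share the rise either: none of 92 was called from P1 to P2 (median -0.03). Of 41 other genes of mitochondrial gene expression, among them translation factors, tRNA synthetases and some that act on mitochondrial DNA or RNA, 30 rose and 1 fell from P1 to P2 (median 0.80).

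Per unit length, the member with the highest mean over the 14 groups was mRpS5 at 127 FPKM, followed by mRpL42 at 123 and mRpS21 at 81.1. The lowest were mRpL11 at 21, mRpS31 at 21.3 and mRpL37 at 22.4 FPKM. In control P3 the value for mRpL42 was 260 ± 24.8 FPKM and that for mRpS5 203 ± 23.3, against 40.2 ± 3.66 for mRpL11. The value of mRpL11 thus lay outside the spread of the other 2 genes.

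Most members followed the family closely. The Pearson correlation of a member's log2 CPM with the median of the other members over the 14 group means, which share libraries and scaling, had a median of 0.96. The most alike were mRpL13 (0.995), mRpL17 (0.993) and mRpL12 (0.992). The least alike were mRpL28 (0.73), mRpS5 (0.758), mRpS7 (0.813), mRpL33 (0.824) and mRpS14 (0.828). For mRpL28, a homolog of bacterial L28, the level stayed high past P3: it was 92.9 ± 9.37 CPM at P3, 96.4 ± 5.15 at P4 and still 79.8, 89.8 and 74.3 CPM at A1 in controls. For mRpS5 it was 226 ± 22.2 CPM at P3 and 199 ± 7.38 at P4, and the 2 stages did not differ by the test (log2 difference -0.18, adjusted p = 0.381).

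**Figure D2:**
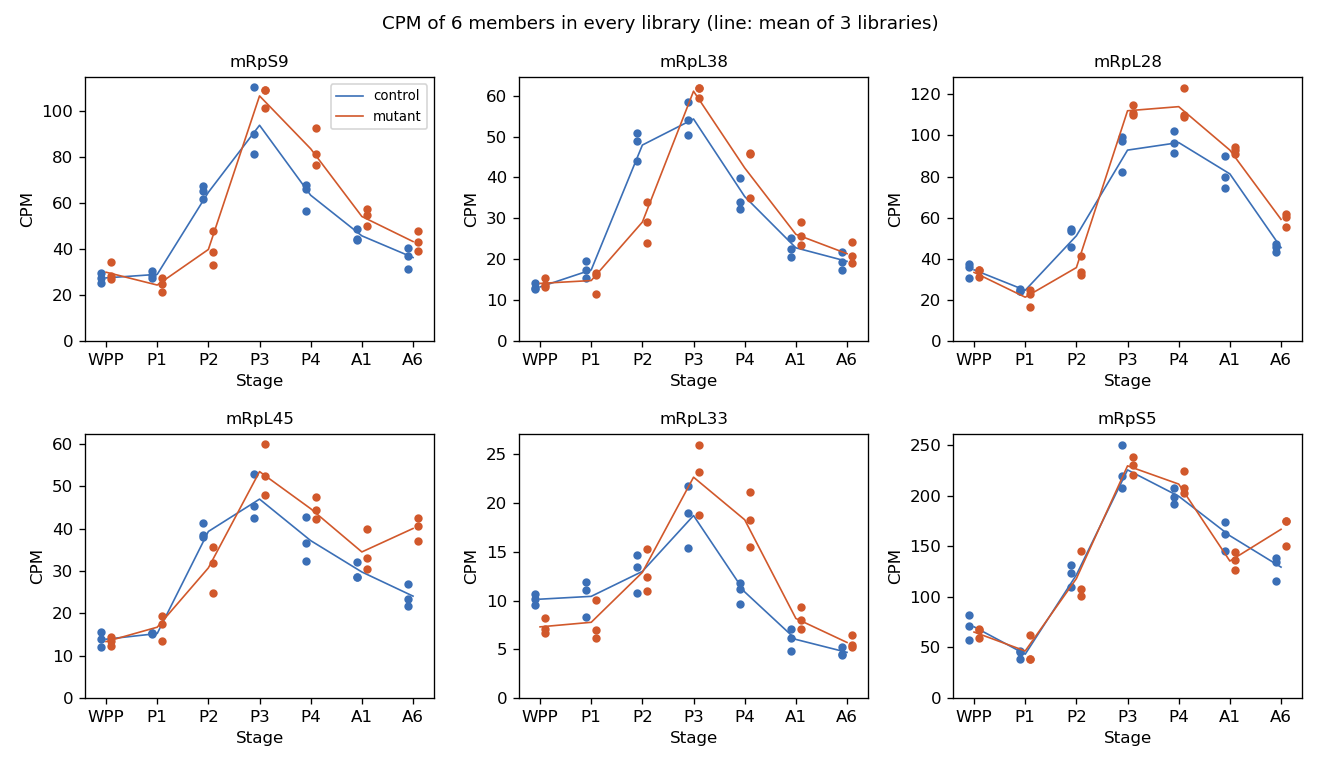
CPM (y axis, from 0) of 6 members in every library by stage (x axis), control in blue and mutant in orange, lines through the mean of 3 libraries. The mutant libraries of mRpS9, mRpL38 and mRpL28 lie below all control libraries at P2, those of mRpL45 and mRpL28 above them at A6, and those of mRpL33 above them at P4.

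In mutants the family was likewise highest at P3, but P2 and P4 did not overlap as they did in controls: every P2 library lay below every P4 library. The summed level was 968.4 ± 5.02 CPM at WPP, 1017 ± 119 at P1 (1094 and 1077 CPM in the 2 libraries other than replicate 1), 1914 ± 234 at P2, 4023 ± 73.1 at P3, 2773 ± 231 at P4, 1691 ± 75.6 at A1 and 1360 ± 41.7 at A6 (SD, n = 3), and 70 members had their highest mean at P3. From WPP to P1, 8 members rose and 2 fell (22.5% of all genes higher, 22.4% lower), and these 10 calls became 19 without mutant P1 replicate 1 and 6 without mutant P1 replicate 2. From P1 to P2, 71 members rose (27.1% of all genes higher, 25.5% lower) with a median of 0.93, and the exceptions were mRpL20 and mRpL50. Without mutant P1 replicate 1 this was 70 members with a median of 0.75. After P3 the members that fell numbered 55 to P4 (18.2% of all genes higher, 19.7% lower), 70 from P4 to A1 (18.1% higher, 28.8% lower) and 31 from A1 to A6 (14.3% higher, 12.5% lower), with none higher. The last count became 20 without mutant A1 replicate 1.

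Between genotypes the family differed mainly at P2. There 31 of 73 members fell in mutants and none rose (percent of all genes called lower 8.79, higher 2.78), and all 73 log2 differences were below 0, from -0.84 to -0.02. The median was -0.39, against 0 over all genes tested. In 47 members, 64.4%, every mutant library lay below every control library, against 15% of all genes. The summed level was 2318, 2522 and 2687 CPM in the control libraries and 2117, 1658 and 1967 CPM in the mutant libraries. These do not overlap, and mutant P2 replicate 2 was the lowest.

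**Figure D3:**
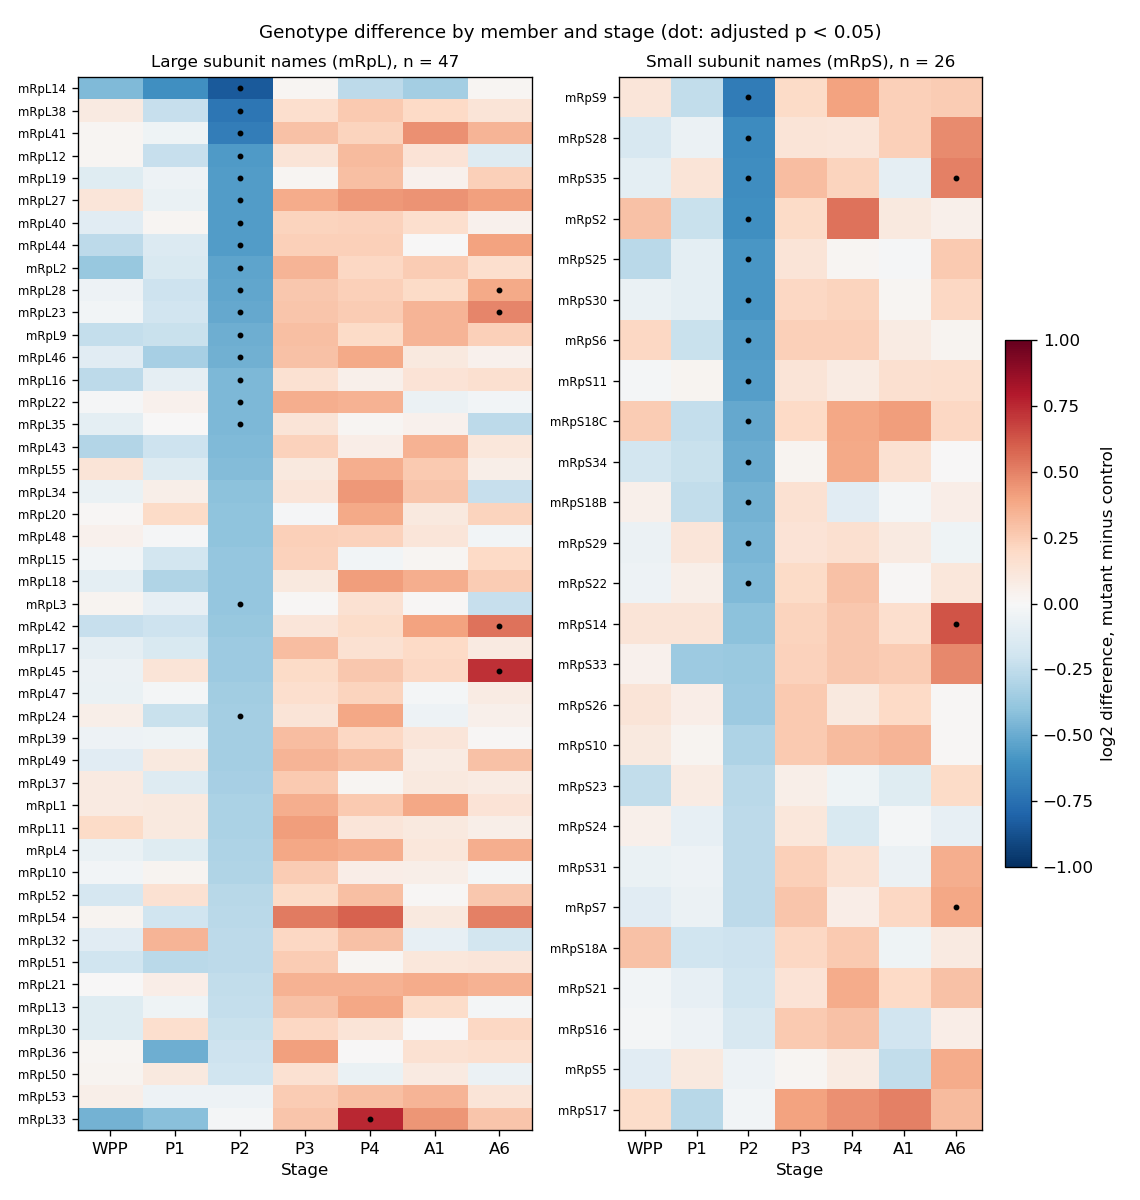
Log2 difference between mutant and control (colour, blue lower and red higher in mutants) for each of the 73 members (rows, ordered by the P2 difference within each subunit) at each stage (columns), with a dot where the adjusted p lay under 0.05. The P2 column holds 31 dots, all lower, and is below 0 throughout, the P3 column is above 0 in 72 members with no dot, and A6 holds 7 dots, all higher.

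The smallest adjusted p at P2 belonged to mRpS9, a homolog of bacterial S9. It lies on chromosome 3R from 7889277 to 7902667 on the minus strand (dm6) and overlaps ArgRS-m and wtrw, which run on the opposite strand. Its level was 61.5, 67.1 and 65 CPM in controls and 47.7, 32.9 and 38.6 CPM in mutants, with every mutant library below every control library. The difference was 1.63-fold (log2 difference -0.70, SE 0.125, adjusted p = 1.3e-04). The sources used here do not give the strand setting of the counting, so reads of mRpS9 and of its opposite neighbours may not be told apart.

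The next was mRpL38, which belongs to the central protuberance of the large subunit in mammals. It lies on chromosome X from 14226289 to 14227949 on the plus strand and overlaps no annotated gene. Control libraries had 44, 48.9 and 50.9 CPM and mutant libraries 34.1, 24.1 and 29.1 CPM, again without overlap (log2 difference -0.72, SE 0.136, adjusted p = 3.0e-04).

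For mRpL28, control libraries had 45.6, 53.6 and 54.4 CPM and mutant libraries 33.7, 32.3 and 41.2 CPM (log2 difference -0.52, SE 0.11, adjusted p = 0.00123). This call was lost with only the 6 P2 libraries in the fit. For mRpS30, control libraries had 88.3, 96 and 99.7 CPM and mutant libraries 74, 50.6 and 65.1 CPM (log2 difference -0.58, SE 0.128, adjusted p = 0.00165). The groups of both genes are separate.

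For mRpL12, whose bacterial homolog L7/L12 forms the stalk that recruits translation factors, control libraries had 60.5, 57.6 and 68.5 CPM and mutant libraries 44.7, 35.9 and 45 CPM (log2 difference -0.57, SE 0.133, adjusted p = 0.00309). The largest difference was that of mRpL14, at 23.2, 24.7 and 32.7 CPM in controls and 15.9, 9.41 and 20.1 CPM in mutants (log2 difference -0.84, SE 0.198, adjusted p = 0.00341). The groups do not overlap for either gene.

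The calls came from both subunits, with 18 of 47 large subunit members (median -0.39) and 13 of 26 small subunit members (median -0.42). Other called members of the large subunit were mRpL2, mRpL3, mRpL9, mRpL16, mRpL19, mRpL22, mRpL23, mRpL24, mRpL27, mRpL35, mRpL40, mRpL41, mRpL44 and mRpL46. Those of the small subunit were mRpS2, mRpS6, mRpS11, mRpS18B, mRpS18C, mRpS22, mRpS25, mRpS28, mRpS29, mRpS34 and mRpS35. Only mRpS18B among the 31 had overlapping libraries. Of the 3 genes that share the number 18, mRpS18B had 32.1 ± 6.43 CPM in controls against 23.2 ± 3.31 in mutants (adjusted p = 0.0210) and mRpS18C at 19.1 ± 1.32 and 13.5 ± 3.82 (adjusted p = 0.0442). The third, mRpS18A, was at 27.1 ± 2.77 and 23.5 ± 3.17 CPM (adjusted p = 0.388), and whether the 3 differ from each other was not tested.

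At the other end, 4 members had P2 differences of at most 0.05 in size. These were mRpL33 (-0.02), mRpS17 (-0.03), mRpS5 (-0.05) and mRpL53 (-0.05). The most abundant member, mRpS5, had 110, 131 and 124 CPM in controls and 145, 108 and 101 CPM in mutants, which overlap.

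The number of P2 calls depended on single libraries. It was 12 without mutant P2 replicate 2, 16.4% of members against 7.46% of all genes called in either direction. Without control P2 replicate 3 it was 19, 26% against 8.37%. With only the 6 P2 libraries in the fit it was 8, which is 11% of members against 6.29% of all genes called. It was 37 without mutant P1 replicate 1, 50.7% of members against 14.3% of all genes called. The calls of mRpS9, mRpL38, mRpS30, mRpL12, mRpL23 and mRpS35 held in all 6 alternative settings and all 42 fits that left out 1 library. The call of mRpL14 was lost with only the 6 P2 libraries and held in 41 of the 42 fits. In the fits that left out 1 library the median of the family stayed between -0.46 and -0.30.

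**Figure D4:**
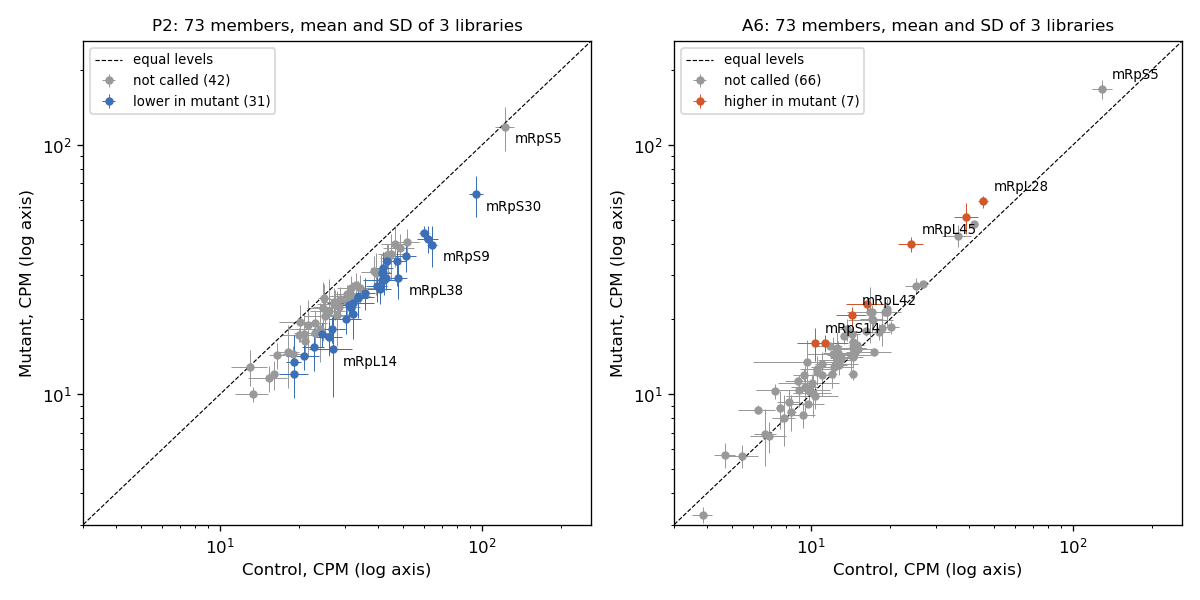
Mean CPM of each of the 73 members in mutants (y axis, log scale) against controls (x axis, log scale) at P2 and at A6, error bars SD of 3 libraries, the dashed line marking equal levels. At P2 every member lies below the line, 31 of them called lower, and at A6 7 members are called higher, with mRpL45 farthest above the line.

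Levels of other tissues differed between the same P2 libraries. The summed level of 22 muscle genes, all detected in every P2 library, was 14700 to 17400 CPM in controls and 8200 to 11400 CPM in mutants, and 16 of the 22 were called lower. The roX sum was 295, 171 and 133 CPM in the control libraries and 329, 502 and 316 CPM in the mutant libraries. The testis sum was 1210, 702 and 540 CPM in controls and 761, 1360 and 919 CPM in mutants. Among the 3 libraries of each genotype, the one with the highest testis sum had the lowest sum of members. Mutant replicate 1 had a lower testis sum and a lower sum of members than control replicate 1. Whether these sums are related was not tested. The sum of 4 haemocyte genes was 235 to 348 CPM in controls and 176 to 213 CPM in mutants, and the yolk and eggshell sum, with 7 to 10 of 11 genes detected, 10.3 to 14.7 against 5.86 to 7.45 CPM. The sums of fat body, germline and neuron genes overlapped between genotypes. The part of these RNAs in the P2 result was not tested. In whole animals fewer cells of a type and less RNA per cell cannot be told apart.

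Nuclear genes of oxidative phosphorylation fell at P2 as well, 56 of 80 with a median of -0.42. Of 92 cytosolic ribosomal proteins 19 fell (median -0.23). Among the 41 other genes of mitochondrial gene expression 8 fell and none rose (median -0.25). One of them was bonsai, the mitochondrial S15 protein, at 51.2, 51.8 and 62.1 CPM in controls and 40.4, 30.8 and 40 CPM in mutants (log2 difference -0.57, SE 0.143, adjusted p = 0.00610), without overlap. Of the 12 tested genes of the mitochondrial genome 1 rose and 2 fell, with a median of 0.52, and these transcripts are measured from poly(A)-selected RNA.

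The P2 libraries were also placed between control P1 and control P3. For the 71 members that differed at least 2-fold between those stages in controls, the control P2 libraries had covered a median of 65.4%, 73.6% and 79.9% of the log2 distance and the mutant libraries 57%, 37.3% and 51.2%. The groups do not overlap. Over 2266 other genes that were higher at P3 than at P1, the shares were 54.1%, 59.8% and 58.7% in controls and 47.8%, 37% and 44.3% in mutants. Over 1979 genes that were lower at P3, they were 68.8%, 59.3% and 53.8% in controls and 57.9%, 66.6% and 59.1% in mutants, which overlap. Mutant P2 replicate 2 had the lowest share among the rising genes of both sets. For each gene the share rescales its P2 level between 2 fixed control values. The lower shares of the members in mutants therefore restate their lower P2 levels and are not a further result. The measure was chosen after the data were seen.

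**Figure D5:**
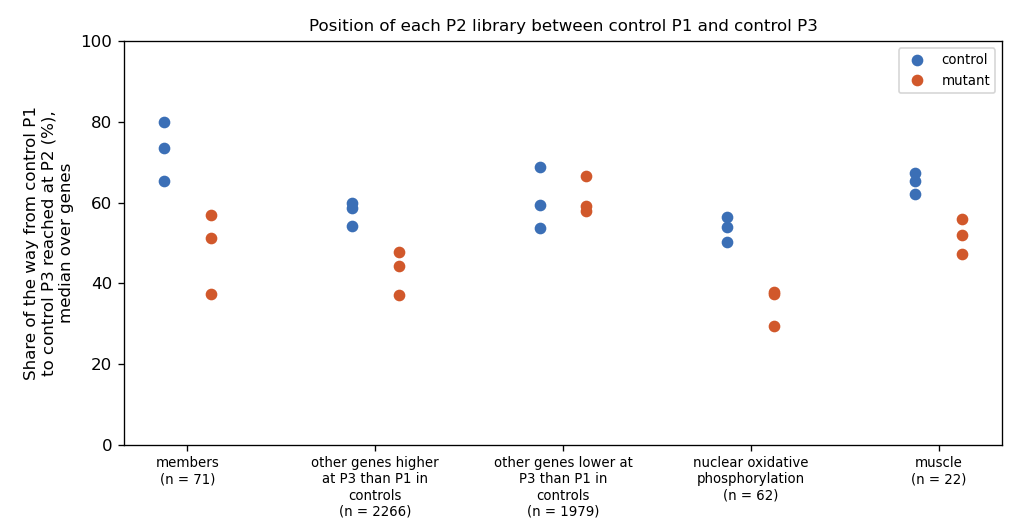
Median share of the log2 distance from control P1 to control P3 that each P2 library had reached (y axis, in percent), for 5 sets of genes that differ at least 2-fold between those control stages (x axis), control libraries in blue and mutant libraries in orange. Mutant libraries lie below control libraries for the members (37.3% to 57% against 65.4% to 79.9%), other rising genes, oxidative phosphorylation and muscle, and overlap with them for falling genes. The share rescales the P2 level, so for rising genes a lower P2 level gives a lower share.

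By P3 the members no longer lay below controls. The mutant sums were 3945, 4090 and 4033 CPM and the control sums 3177, 3823 and 3439 CPM, so that every mutant library lay above every control library. Of 73 members 72 had a log2 difference above 0, with a median of 0.22 against 0 over all genes, and in 31, 42.5%, the mutant libraries all lay above the controls, against 5.32% of all genes. No member was called at P3 with edgeR (0.176% of all genes higher, 0.271% lower) or with DESeq2, and 18 had an unadjusted p under 0.05, all higher. The share of all genes under this unadjusted cut-off is not given here for any stage. All 31 members that fell at P2 were above 0 at P3, with a median of 0.19. From P2 to P3, 72 members rose in mutants (19.7% of all genes higher, 18.3% lower) with a median of 1.07, and the exception was mRpS23, at 21.6 ± 7.42 and 29.6 ± 2.39 CPM (adjusted p = 0.0714).

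At P4 the pattern was alike, with 67 of 73 differences above 0 and a median of 0.24, but 1 call (0.453% of all genes higher, 0.402% lower). The call was mRpL33, a homolog of bacterial L33, on chromosome X from 4321764 to 4322231 on the minus strand. Its level was 9.68, 11.2 and 11.8 CPM in controls and 21.1, 15.5 and 18.3 CPM in mutants, without overlap (log2 difference 0.75, SE 0.184, adjusted p = 0.0424). The call was lost with DESeq2's size factors, with the deposited factors and with only the 6 P4 libraries. At P4, 25 members had an unadjusted p under 0.05, all of them higher. In 34.2% of members the mutant libraries all lay above the controls, against 8.37% of all genes.

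At A1 no member was called (0.929% of all genes higher, 1.97% lower), 13 had an unadjusted p under 0.05, all higher, and the median was 0.12. DESeq2 called 4 members higher, 5.48% of members against 3.81% of all genes called in either direction. At WPP and P1 no member was called either with edgeR or with DESeq2, and 2 and 6 had an unadjusted p under 0.05. The share of all genes called higher and lower was 0.205% and 0.446% at WPP and 0.168% and 0.629% at P1. The medians were -0.05 and -0.08, the latter beside -0.07 over all genes. Without mutant P1 replicate 1 the count at P1 was also 0, with a median of 0.01.

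At A6 the called members lay in the other direction, higher in mutants. There 7 of 73 members rose and none fell (6.14% of all genes higher, 5.28% lower), so the share of members, 9.59%, was near that of all genes. The median was 0.16 and 60 members were above 0. The summed level was 1202, 1167 and 1136 CPM in controls and 1365, 1399 and 1316 CPM in mutants, without overlap.

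The smallest adjusted p was that of mRpL45, whose mammalian counterpart lies at the exit of the peptide tunnel beside the inner membrane. It is on chromosome 3R from 22618492 to 22619826 on the plus strand and overlaps no annotated gene. Control libraries had 27, 21.7 and 23.5 CPM and mutant libraries 42.4, 40.6 and 37.1 CPM, with no overlap (log2 difference 0.73, SE 0.135, adjusted p = 2.6e-04). The call held in all alternative settings and all fits that left out 1 library.

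For mRpL42, control libraries had 14.6, 15.9 and 12.3 CPM and mutant libraries 22.4, 19.1 and 20.8 CPM (log2 difference 0.54, SE 0.135, adjusted p = 0.00619). For mRpS14, which overlaps CG32533 on the same strand, they had 9.61, 11 and 10.4 CPM and 13.4, 18 and 16.6 CPM (log2 difference 0.63, SE 0.166, adjusted p = 0.00955). Both sets of libraries are separate between genotypes, and reads of mRpS14 may be shared with CG32533.

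For mRpL23, whose bacterial homolog lies at the exit of the peptide tunnel, control libraries had 19.4, 15.2 and 14.3 CPM and mutant libraries 24.3, 22.6 and 21.9 CPM (log2 difference 0.49, SE 0.131, adjusted p = 0.0105). For mRpL28 they had 47.3, 45.7 and 43.3 CPM and 55.5, 61.8 and 60.3 CPM (log2 difference 0.38, SE 0.109, adjusted p = 0.0177). Neither gene's groups overlap. The other 2 called members were mRpS35, at 11.3 ± 2.46 and 16 ± 1.23 CPM in controls and mutants, and mRpS7, at 39.1 ± 4.09 and 51.3 ± 7.28 CPM, whose libraries overlap. The call of mRpS35 at A6 was lost with DESeq2. Called at both P2 and A6 were 3 members, mRpL28, mRpL23 and mRpS35, lower at the first and higher at the second, and none was called in 1 direction at 2 stages.

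The 7 calls became 3 without control A6 replicate 2, control A6 replicate 3 or mutant A6 replicate 2, and 12 with only the 6 A6 libraries. In that last fit 26.1% of all genes were called, above the 16.4% of members. In the same libraries the muscle sum was 13300 to 13600 CPM in controls and 20200 to 22300 CPM in mutants, with 18 of 22 genes called higher. The roX sum was 498 to 560 against 695 to 846 CPM, the testis sum 4490 to 5000 against 3340 to 3970 CPM, and the sum of 7 fat body genes 1840 to 2300 against 565 to 613 CPM. The haemocyte sum was 129 to 155 against 92.5 to 102 CPM, the yolk and eggshell sum 18.9 to 19.9 against 11.4 to 12.8 CPM and the sum of 6 neuron genes 730 to 803 against 847 to 959 CPM, while the germline sum overlapped. Their part in the A6 result was not tested. Of the 80 nuclear genes of oxidative phosphorylation, 59 rose at A6 with a median of 0.59, and 15 of 92 cytosolic ribosomal proteins rose with a median of 0.23.

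The small subunit protein tko, the mitochondrial S12 protein, had a larger log2 difference than any member at A1 and at A6. At A1 its level was 9.02, 13.9 and 11.2 CPM in controls and 32.3, 28.8 and 24.9 CPM in mutants (log2 difference 1.33, SE 0.196, adjusted p = 3.4e-05). At A6 it was 5.95, 5.48 and 8.25 CPM in controls and 13.2, 18.1 and 14.5 CPM in mutants (log2 difference 1.22, SE 0.206, adjusted p = 8.6e-05). The mutant libraries were all above the control libraries at both stages, and at P2 they overlapped (17.3 ± 1.82 against 21.1 ± 4.37 CPM, adjusted p = 0.391). At P3 they also lay above, at 48.1, 47 and 54.8 CPM against 29.4, 42.1 and 24.5 CPM in controls. So they did at P4, at 36.1, 40.1 and 43.3 CPM against 20.1, 26.1 and 29.4 CPM. At WPP and P1 the libraries of tko overlapped. From the same list, TFAM, which packages the mitochondrial genome and is needed for its transcription, was at 32.9 ± 2.73 CPM in A6 controls and 42.3 ± 2.61 in A6 mutants (adjusted p = 0.0354).

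The genotype difference varied with stage beyond the spread between libraries for 25 of 73 members, 34.2%, against 12.4% of all genes (edgeR's quasi-likelihood F test of the interaction). The 25 became 16 without mutant P2 replicate 2. Only P2 and A6, the stages with the most members called between genotypes, were set against the other stages. The p-values do not allow for that choice, which came from these same data. Compared with the mean of the other 6 stages, the genotype difference at P2 was lower for 37 members and higher for none (8.01% of all genes lower, 2.41% higher), with a median of -0.50. The 37 became 17 without mutant P2 replicate 2 and 24 without control P2 replicate 3. At A6 it was higher for 4 members (3.61% of all genes higher, 2.04% lower), namely mRpL45, mRpL42, mRpL28 and mRpL23, which is near the share of all genes. The 4 became 1 without control A6 replicate 3 and 2 without control A6 replicate 2, mutant A6 replicate 2 or control WPP replicate 1.

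The members share features of gene structure that the symbol rule did not use. Of the 73 deposited identifiers 72 were found in the annotation, and that of mRpS5 was not. The median longest transcript of a member was 778 bases with 2 exons, against 1774 bases and 3 exons over 13147 protein-coding genes of the table. The members are spread over the chromosomes, with 11 on X, 12 on 2L, 12 on 2R, 16 on 3L and 21 on 3R. Another annotated gene overlapped 43 of the 72, 59.7%, against 51.2% of all protein-coding genes, and 3 of these overlap on the same strand (mRpL13, mRpS14 and mRpL53).

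In 51 of 72 members, 70.8%, a protein-coding gene on the opposite strand started within 500 bases in the head-to-head direction, against 25.4% of all protein-coding genes. An example is mRpL28 on chromosome 2L from 4973976 to 4975316 on the plus strand, whose start lies 55 bases from that of its neighbour. At P2, 19 of the 51 members with such a neighbour and 12 of the 21 without one fell, and a difference between these was not tested. Of 46 tested head-to-head neighbours, 2 were called higher and 2 lower at P2 (2.78% of all genes higher, 8.79% lower), with a median of -0.03. The 2 lower neighbours were ATPsynD, a subunit of ATP synthase (log2 difference -0.57, adjusted p = 4.7e-05), and qless (-1.32, adjusted p = 4.3e-06). The 2 higher ones were Taz (0.43, adjusted p = 0.0158) and Cip4 (0.33, adjusted p = 0.0213). At P2 7 of 11 members on X and 24 of 61 on autosomes fell, with medians of -0.45 and -0.38. The shares over all genes of X and of the autosomes are not given here, and a difference between the 2 sets was not tested. Members that overlap another gene and those that do not had P2 medians of -0.39 and -0.40.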

How the data were processed

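Counts, FPKM and normalized signal of 15038 genes came from the workbook the authors deposited. Per the submitters' processing notes the build was dm6 and the tools included RSEM 1.3.1, STAR 2.7.0f, DESeq2 1.22.2 and cutadapt 1.16. The roles of these tools, the annotation and the strand setting are not given in the sources used here. Estimated counts were deposited by the authors as whole numbers and were used as they stand. The FPKM deposited by the authors served only to compare levels between genes. The deposited signal, counts divided by gene and library factors, gave an alternative scaling. Per the labels' protocols, libraries were poly(A)-selected and stranded.

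All 42 libraries entered 1 edgeR 4.0.16 fit (R 4.3.3; 14 groups, TMM, filterByExpr, robust quasi-likelihood), leaving 13672 genes and 28 residual degrees of freedom, with Benjamini-Hochberg adjustment over all genes. SE is the log2 difference divided by the root of F. Correlations used log2 CPM with a prior count of 2. No replicate pair agreed within sampling noise (chi-square per gene 2.77 to 67.5 over 42 pairs). On simulated P2 counts of 13581 genes, 36% of 100 genes changed 1.5-fold and 70% of 100 changed 2-fold were called, with 3 false calls. In the data 1202 genes were called lower and 380 higher at P2, more than were changed in the simulation. The simulated shares may therefore not carry over to the data. Alternatives were other scalings, no filter, no robust dispersion, 6 libraries only, DESeq2 1.42.0 and leaving out each library. Positions come from Ensembl BDGP6.54, which uses dm6 coordinates and holds 99.4% of identifiers.

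The members and the gene lists were chosen with earlier results of these data known. Named members were the 5 with the smallest adjusted p in each direction and stage, the 3 with the largest change per control step, the extremes in FPKM and in likeness to the family, those sharing a number, and those leading the tests across stages. mRpL14, mRpL39, mRpL15, mRpS17, mRpS23 and the 4 members nearest 0 at P2 were named after their values were seen. Promoter motifs were not counted.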

Additional observations from a re-analysis of the deposited data

Results flagged for a closer look

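The genotype difference changed with stage for 25 of 73 members, 34.2%, by edgeR's interaction test, against 12.4% of all genes. The adjusted p was 2.8e-04 for mRpS9, 5.3e-04 for mRpL28, 0.00146 for mRpL2, 0.00152 for mRpL23 and 0.00248 for mRpL42. The 25 became 16 without mutant P2 replicate 2. P2 and A6 were set against the other stages as those with the most members called in these same data, and the p-values do not allow for that choice. At P2 the difference was lower than the mean of the other 6 stages for 37 members, against 8.01% of all genes. Without mutant P2 replicate 2 it was lower for 17, 23.3% of members against 6.19% of all genes called in either direction. It was lower by a log2 value of -0.86 for mRpS9, -0.83 for mRpL38 and -0.66 for mRpL28 (adjusted p = 3.1e-05, 1.9e-04 and 2.3e-04). At A6 the difference was higher than the mean of the other stages for 4 members, near the share of all genes (3.61% higher). It was higher by 0.67 for mRpL45, 0.56 for mRpL42 and 0.39 for mRpL28 (adjusted p = 0.00328, 0.0144 and 0.0397). The fourth was mRpL23, at 0.47 (adjusted p = 0.0417), whose call was lost with DESeq2's size factors, with the deposited factors and with DESeq2. The 4 became 1 without control A6 replicate 3.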

How the results depend on the processing

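Single calls were followed for the genotype differences at a stage and for those at P2 and A6 against the other stages. None reversed in 3799 alternative values of 80 such calls, of which 23 held throughout. Single calls of the steps between stages were not followed in this way. With only the 6 libraries of a comparison, 8 members were called at P2, 0 at P4, 1 at A1, 12 at A6, 7 from WPP to P1 in controls (1 higher and 6 lower, against 10 and 2) and 6 in mutants. In these fits 6.29% of all genes were called at P2, 2.74% at A1 and 26.1% at A6. From WPP to P1 it was 62.5% in controls and 44.2% in mutants. At P4 the 1 call became 0 with DESeq2's size factors or the deposited factors and 3 with DESeq2, and at A1 the 0 calls became 3, 2 and 4. Of all genes 1.57% were called at P4 with DESeq2, and 3.06%, 3.11% and 3.81% at A1. From WPP to P1 in mutants the 10 calls became 17 with the deposited factors. Leaving out 1 library gave 12 to 37 calls at P2, 0 to 2 at P4, 0 to 1 at A1 and 3 to 8 at A6, 16 to 29 for the interaction, 17 to 47 for P2 and 1 to 5 for A6 against the other stages. For the control steps, leaving out 1 library gave 6 to 15 calls from WPP to P1, 33 to 50 from P2 to P3 and 20 to 35 from A1 to A6. For the mutant steps it gave 6 (without mutant P1 replicate 2) to 19 (without mutant P1 replicate 1) from WPP to P1 and 20 to 36 from A1 to A6. The causes were not tested. No paired analysis was possible because the labels carry no replicate numbers. At these depths most simulated 1.5-fold differences at P2 were missed, in a simulation that changed fewer genes than were called in the data.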
